A study of Mus musculus with 8 samples.

Results

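The 10 genes described here are transcripts of the AP-1 and immediate early response: Fos, Fosb, Fosl2, Jun, Junb, Jund, Atf3, Egr1, Btg2 and Ier3. They were chosen by name, and all 10 were among the 22155 genes of the count table and among the 13999 genes with enough counts to be tested. Liver RNA was sequenced in 8 mouse libraries, 2 for each of 4 groups. Yap controls were C57BL/6 mice homozygous for a floxed Yap1 allele and infected with a GFP virus. Yap1 knockouts received the iCre virus, which the design text describes as an AAV8 vector that removes Yap1 from hepatocytes alone, so other liver cells keep the gene. The Ctgf control group was floxed for Ctgf, and the Ctgf knockout group was a conditional knockout with a Cre driver not given in the sources used here. All 4 groups drank a liquid diet with 1% ethanol for 2 days and 2% ethanol for 10 days, and all received CCl4 (1 ul/g), a hepatotoxin, 2 days before the livers were taken. The mice were 8 to 10 weeks old by the sample labels and 8 weeks old by the design text. No uninjured group was analysed here, so each level below is a level in an injured liver and not an induction. The labels do not say that the libraries of a group came from separate animals, and the p-values then measure the spread between these libraries, which may be technical.

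AP-1 is a family of dimers built from Fos proteins, Jun proteins and related bZIP partners such as Atf3. Jun proteins pair with each other or with Fos proteins, whereas Fos proteins need a Jun partner to bind DNA. Many of their genes, though not all, are switched on within minutes of growth factor, cytokine or stress signals through MAP kinases, as are Egr1, Btg2 and Ier3. The mRNAs of such genes are short-lived. In liver the same response is known from the priming phase after partial hepatectomy or toxic injury, where Jun is needed for hepatocyte proliferation.

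The promoter of Fos is a classic target of CREB and ATF factors through a cyclic AMP response element (CRE), and the CRE letters are shown here for the members that carry them. Promoters of 9 of the 10 genes, all but Egr1, were taken from the RefSeq promoter table (GRCm38.p6). The 250 bases before the start were searched on both strands. The short form TGACGT was found in 3 of these 9 windows, Fos, Btg2 and Atf3, against 6.47% of 32851 promoter windows of the same length. The full palindrome TGACGTCA, which contains the short form, was found in Btg2 alone among the 9, against 1.55% of all windows. The classic AP-1 letters TGANTCA were in 0 of the 9 windows, against 6.75% of all. The CArG box bound by SRF was in 0 of the 9, against 1.47%. Bases further upstream were not searched, so these genes may carry such sites outside the windows. Egr1 was left out of the search, so the counts for the 9 do not cover it. A GC box, GGGCGG, was found in 7 of the 9, against 32.7%. These matches are letters in a window and not measured binding. In the 3 sequences below, written 5′ to 3′ on the strand of the gene, capitals mark the CRE letters. They lie at chr12:85473640-85473889 on the plus strand for Fos, chr1:134079156-134079405 on the minus strand for Btg2 and chr1:191183334-191183583 on the minus strand for Atf3.
Fos: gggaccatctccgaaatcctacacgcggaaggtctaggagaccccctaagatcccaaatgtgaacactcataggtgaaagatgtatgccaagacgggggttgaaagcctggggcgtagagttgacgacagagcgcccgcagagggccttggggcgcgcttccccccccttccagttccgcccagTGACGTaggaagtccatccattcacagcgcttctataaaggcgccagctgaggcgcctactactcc
Btg2: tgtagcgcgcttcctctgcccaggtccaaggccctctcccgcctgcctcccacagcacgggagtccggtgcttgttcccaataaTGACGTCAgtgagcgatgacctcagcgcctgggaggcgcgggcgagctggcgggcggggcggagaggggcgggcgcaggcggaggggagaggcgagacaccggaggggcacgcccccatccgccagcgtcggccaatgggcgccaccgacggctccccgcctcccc
Atf3: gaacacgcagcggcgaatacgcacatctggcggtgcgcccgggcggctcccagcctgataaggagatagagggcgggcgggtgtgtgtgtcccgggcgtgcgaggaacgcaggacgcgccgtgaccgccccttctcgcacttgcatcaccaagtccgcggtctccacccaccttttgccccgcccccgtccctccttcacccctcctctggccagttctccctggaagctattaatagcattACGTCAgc
Counting the base before the start as -1, the Fos match began at position -66, on the strand of the gene, and a TATA box, TATAAA, began at -33. The Btg2 match spanned positions -166 to -159. The Atf3 match lay on the other strand, at positions -8 to -3, and the last 7 bases of that window are exonic in GENCODE M21.

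The libraries held 26904021 to 33488609 counts, and levels are given as CPM, counts relative to library size, with the library size scaled by the trimmed mean of M values (TMM). A count of 3, taken as the limit of detection, equals 0.0830 to 0.123 CPM, and it covers counting error only. Every member was above that limit in all 8 libraries. Yap1 itself stood at 107 and 76.1 CPM in the Yap controls and at 31.0 and 32.5 in the Yap1 knockouts. Ctgf stood at 28.8 and 32.1 CPM in its controls. It stood at 8.02 in the library labelled Ctgf knockout 1 and at 49.2 in the library labelled Ctgf knockout 2. In the latter Ctgf RNA was thus not below its controls. With the Cre driver not given, a whole-liver level cannot show whether that label is wrong. The library Yap control 2 held 12585 CPM of 12 exocrine pancreas transcripts, against 3.13 to 7.68 in the other 7. A list of 9 hepatocyte markers summed to between 47151 and 92438 CPM, with none at 0, as the label of liver implies. In whole liver, fewer cells of a type and less RNA per cell cannot be told apart.

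Fos, the founding member of its family, was at 30.9 and 11.4 CPM in Yap controls 1 and 2, at 48.6 and 37.4 in Yap1 knockouts 1 and 2, at 15.6 and 18.8 in Ctgf controls 1 and 2, and at 5.78 and 39.8 in the Ctgf knockouts labelled 1 and 2. Both Yap1 knockouts were above both of their controls, while the libraries labelled Ctgf knockout lay on either side of theirs. Fosb, a close relative that is strongly induced in stimulated neurons, was at 6.36 and 2.10 CPM in the Yap controls, at 7.60 and 6.26 in the Yap1 knockouts, at 1.82 and 3.33 in the Ctgf controls and at 1.35 and 1.91 in the Ctgf knockouts. Its groups overlapped in both lines. Fosl2, which encodes Fra-2, a Fos protein without the strong transactivation domain of Fos, was at 90.0 and 45.8 CPM in the Yap controls, at 149 and 105 in the Yap1 knockouts, at 53.9 and 55.5 in the Ctgf controls and at 32.7 and 47.7 in the Ctgf knockouts. Its levels were higher in both Yap1 knockouts than in both controls and lower in both Ctgf knockouts than in both of theirs.

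Jun, the main partner of Fos, was at 146 and 139 CPM in the Yap controls, at 241 and 224 in the Yap1 knockouts, at 191 and 254 in the Ctgf controls and at 145 and 149 in the Ctgf knockouts. Replicates were close in 3 of the groups, and the groups did not overlap in either line, with the knockout above the control for Yap1 and below it for Ctgf. Junb, a Jun protein that often restrains proliferation, was at 87.2 and 83.5 CPM in the Yap controls, at 197 and 145 in the Yap1 knockouts, at 90.4 and 80.4 in the Ctgf controls and at 49.3 and 115 in the Ctgf knockouts. The 4 controls lay within a narrow band, both Yap1 knockouts were above it, and the libraries labelled Ctgf knockout fell on either side. Jund, the Jun gene that is expressed most constantly across tissues, was at 154 and 331 CPM in the Yap controls, at 288 and 331 in the Yap1 knockouts, at 215 and 232 in the Ctgf controls and at 193 and 200 in the Ctgf knockouts. Yap control 2 was about as high as the higher Yap1 knockout, and its Ctgf knockouts were just below their controls. In GENCODE M21 each of the 3 Jun genes has exonic bases within the span of a gene on the opposite strand. These are 689 bases of Jun within Junos, 173 of Junb within Prdx2 and 919 of the 1668 of Jund within Gm11175. Whether they are exonic in the opposite gene was not examined. How the counting treated strand was not given in the sources used here, so the counts of the 3 Jun genes are uncertain in that measure.

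Atf3, a stress-induced bZIP factor that pairs with Jun proteins, was at 70.9 and 89.9 CPM in the Yap controls, at 153 and 155 in the Yap1 knockouts, at 231 and 178 in the Ctgf controls and at 240 and 118 in the Ctgf knockouts. Both Yap1 knockouts were above their controls and below both Ctgf controls. Egr1, a zinc finger factor on chromosome 18 that is induced through SRF, was at 94.0 and 102 CPM in the Yap controls, at 129 and 96.5 in the Yap1 knockouts, at 76.6 and 116 in the Ctgf controls and at 31.6 and 180 in the Ctgf knockouts. Its lowest and highest values were both in libraries labelled Ctgf knockout, 5.69-fold apart, and the groups overlapped in both lines.

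Btg2, an antiproliferative gene that is also a p53 target and promotes mRNA deadenylation, was at 48.3 and 48.4 CPM in the Yap controls, at 182 and 153 in the Yap1 knockouts, at 47.2 and 48.9 in the Ctgf controls and at 38.9 and 52.2 in the Ctgf knockouts. The Yap1 knockouts stood apart from the other 6 libraries, which spanned 38.9 to 52.2 CPM. Ier3, a stress-inducible regulator of cell survival, was at 31.6 and 32.6 CPM in the Yap controls, at 72.4 and 108 in the Yap1 knockouts, at 66.9 and 67.8 in the Ctgf controls and at 34.3 and 39.8 in the Ctgf knockouts. Its levels formed a low set, of the Yap controls and the Ctgf knockouts, and a high set, of the Yap1 knockouts and the Ctgf controls.

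**Figure D1:**
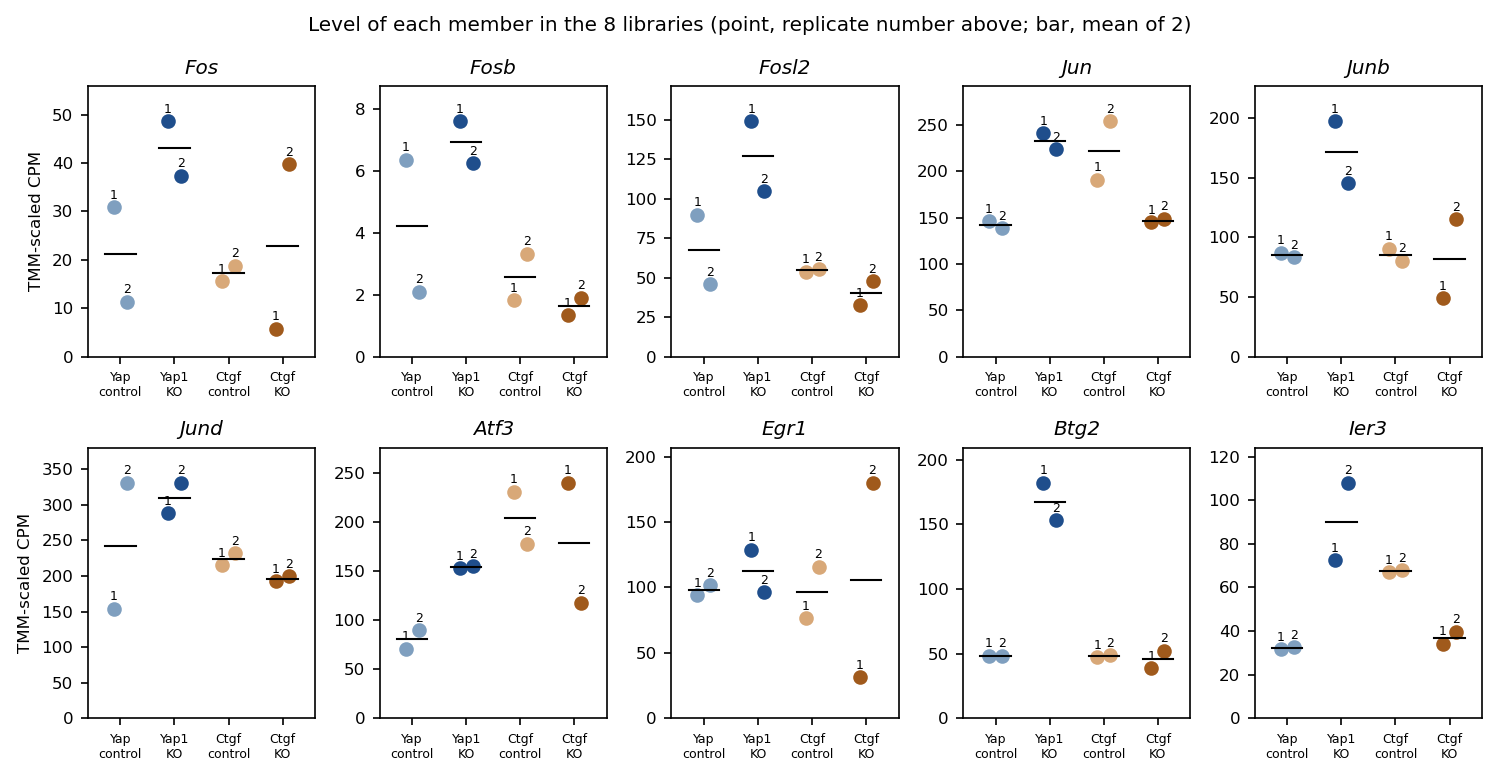
Level of each of the 10 genes in TMM-scaled CPM (y axis, linear from 0, own scale per gene) in the 4 groups (x axis, KO for knockout, as labelled). Each point is 1 library with its replicate number and each bar is the mean of 2. The Btg2 points of the Yap1 knockouts, at 182 and 153, lie above the other 6, and the Egr1 points of the Ctgf knockouts, at 31.6 and 180, lie on either side of the other 6.

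Levels of different genes are comparable only per length, and CPM was divided by the kilobases of exon in the gene model. On that scale Jund was the most abundant member, at 146 ± 39.7 CPM per kb (SD over 8 libraries), and Fosb the least, at 0.615 ± 0.400. Between them came Atf3 at 71.8, Jun at 58.4, Ier3 at 50.1, Junb at 46.0, Btg2 at 28.2, Egr1 at 23.0, Fos at 11.1 and Fosl2 at 7.48 CPM per kb. Jund was above Atf3, Junb above Btg2, Egr1 above Fos and Fosl2 above Fosb in 8 of 8 libraries. The other neighbours in this order were less separate. Atf3 exceeded Jun in 5 of 8 libraries, by a mean log2 difference of 0.23 (SD 0.57). Ier3 exceeded Junb in 4 of 8, by 0.10 (SD 0.56), and Btg2 exceeded Egr1 in 4 of 8, by 0.17 (SD 0.91). Jun exceeded Ier3, and Fos exceeded Fosl2, in 7 of 8 libraries each, by 0.32 (SD 0.38) and 0.45 (SD 0.64) on the log2 scale. Jun genes were thus present at higher levels per length than any Fos gene.

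The members differed widely in how well replicates matched. The SD of log2 CPM within groups, pooled over the 4 groups, was 1.11 for Fos, more than that of 98.0% of tested genes and 99.1% of the 1000 genes nearest to it in level. It was 0.92 for Egr1, above 99.5% of genes of like level, and 0.66 for Fosb. Jun, at 0.15, Btg2, at 0.17, and Ier3, at 0.22, were instead below the median of all tested genes, 0.31. Junb, Fosl2, Jund and Atf3 were between 0.40 and 0.46. Fos and Egr1 therefore had the widest spread among the members. A difference between groups of 2 had to be larger for them to exceed it. Their replicates were furthest apart in the pair labelled Ctgf knockout, 6.89-fold for Fos and 5.69-fold for Egr1. In the Yap controls, Yap1 knockouts and Ctgf controls the folds were 2.70, 1.30 and 1.21 for Fos. For Egr1 they were 1.08, 1.34 and 1.52. The groups share an estimate of spread in the fit, so that pair also enters the intervals of the other comparisons.

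**Figure D2:**
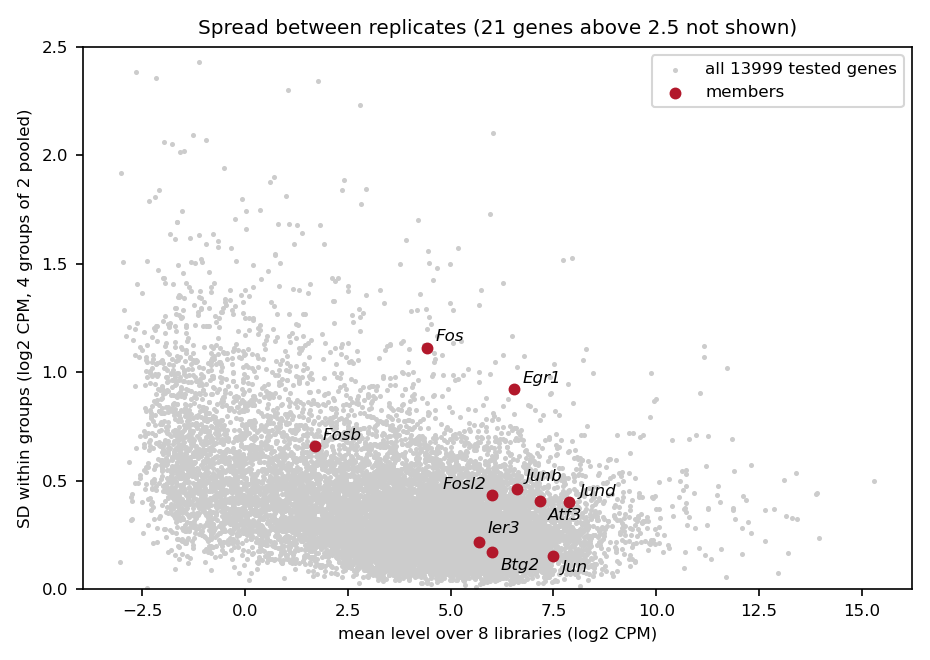
Spread between replicates (y axis, SD of log2 CPM within the 4 groups of 2, pooled) against mean level over the 8 libraries (x axis, log2 CPM) for all 13999 tested genes (grey) and the 10 members (red); 21 genes above 2.5 are not drawn. Fos at 1.11 and Egr1 at 0.92 lie at the upper edge, and Jun at 0.15, Btg2 at 0.17 and Ier3 at 0.22 lie among the less variable genes.

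Members over 2-fold apart between replicates were found in 2 pairs of libraries, the pairs in which tested genes at large were also most often so. In the Yap controls Fos, Fosb and Jund, 3 of 10 members, were over 2-fold apart, against 22.7% of tested genes, so the members were near the share of all genes. In the libraries labelled Ctgf knockout Fos, Junb, Atf3 and Egr1, 4 of 10, were over 2-fold apart, against 11.7% of tested genes. In the Yap1 knockouts and in the Ctgf controls no member was, against 4.2% and 2.2% of tested genes. Of the 10 members, 9 were higher in the library labelled Ctgf knockout 2 than in knockout 1, against 49.8% of tested genes, the exception being Atf3. The library labelled Ctgf knockout 1 had the lowest level of 6 members, Fos, Fosb, Fosl2, Junb, Egr1 and Btg2, and a median of -0.85 for the members' log2 level relative to each gene's mean. The library Yap1 knockout 1 had the highest level of 5 members, with a median of 0.75. Neutrophil markers (10 genes) summed to 74.1 CPM in the library labelled Ctgf knockout 1 and 145 in knockout 2, and macrophage markers (10 genes) to 424 and 752. Against these sums, Retnlg (3.94 and 3.85), Ngp (2.06 and 0.286) and Ltf (1.53 and 0.191) of the neutrophil list were lower in knockout 2. So was Vsig4 (35.5 and 32.8) of the macrophage list. The part of these cell types in the spread of the members was not tested.

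**Figure D3:**
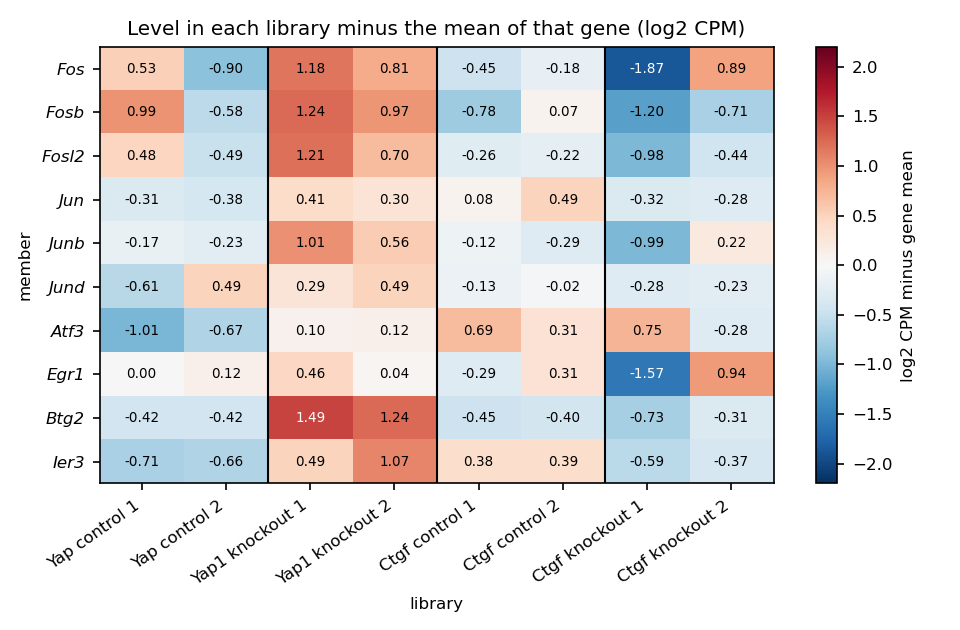
Level of each member (rows) in each library (columns, as labelled) as log2 CPM minus the mean of that gene over the 8 libraries, in colour and in figures. The columns of the Yap1 knockouts are above 0 for all 10 members, and the column of Ctgf knockout 1 has the lowest value for 6 members.

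The comparison of Yap1 knockout with Yap control asks how the loss of Yap1 from hepatocytes bears on these genes in injured liver. All 10 log2 fold changes were above 0, against 49.6% of tested genes, with a median of 0.92 for the members and -4.6e-03 for all tested genes. None of the 10 passed an adjusted p of 0.05 in the edgeR quasi-likelihood test with Benjamini-Hochberg adjustment, where 0.0286% of tested genes passed in either direction. At an unadjusted p under 0.05 the higher members were 6 of 10, against 6.64% of tested genes, and both knockouts were above both controls for 7 of 10, against 23.6%. Members share regulators and were chosen as a family, so they are not independent replicates of the comparison.

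Btg2 had the largest difference, a log2 fold change of 1.79 (SE 0.212, 95% interval 1.30 to 2.28), or 3.46-fold, with an adjusted p of 0.0557 and the 8th smallest p of all tested genes. Ier3 followed at 1.49 (SE 0.230, interval 0.96 to 2.03), or 2.82-fold, with an adjusted p of 0.0805. The AP-1 genes proper had smaller estimates. Junb was at 1.00 (interval 0.15 to 1.86, adjusted p 0.314), Atf3 at 0.94 (0.16 to 1.72, adjusted p 0.302), Fosl2 at 0.90 (0.09 to 1.71, adjusted p 0.335) and Jun at 0.70 (0.21 to 1.19, adjusted p 0.240). For these 6 genes the unadjusted interval lay above 0. For Fos, at 1.02 (-0.77 to 2.81, adjusted p 0.549), it did not, although its estimate was as large as that of Junb. The intervals of Fosb (0.70, -0.53 to 1.94), Jund (0.35, -0.43 to 1.13) and Egr1 (0.20, -1.30 to 1.70) also contained 0, with adjusted p from 0.549 to 0.895.

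With DESeq2 the adjusted p was 1.22e-09 for Btg2 and 1.07e-05 for Ier3, and these 2 members passed among 509 genes. With the replicate number as a block in edgeR 19 genes and 0 members passed. Without Yap control 1, which leaves the library with pancreas transcripts as the lone Yap control, 4 members passed in edgeR, Fosb, Fosl2, Btg2 and Ier3, among 3728 of 14457 genes, and without Yap control 2 no member passed. The Fos genes moved most between these fits. Without Yap control 1 and without Yap control 2 the estimates were 1.88 and 0.48 for Fos, 1.69 and 0.13 for Fosb, and 1.44 and 0.50 for Fosl2. Neutrophil markers summed to 142 and 263 CPM in the Yap controls and 1037 and 521 in the Yap1 knockouts, with 9 of the 10 markers higher in both knockouts than in both controls and Ltf the exception, and 8 erythroid transcripts to 124 and 231 against 470 and 405. Their part in the difference of the members was not tested.

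**Figure D4:**
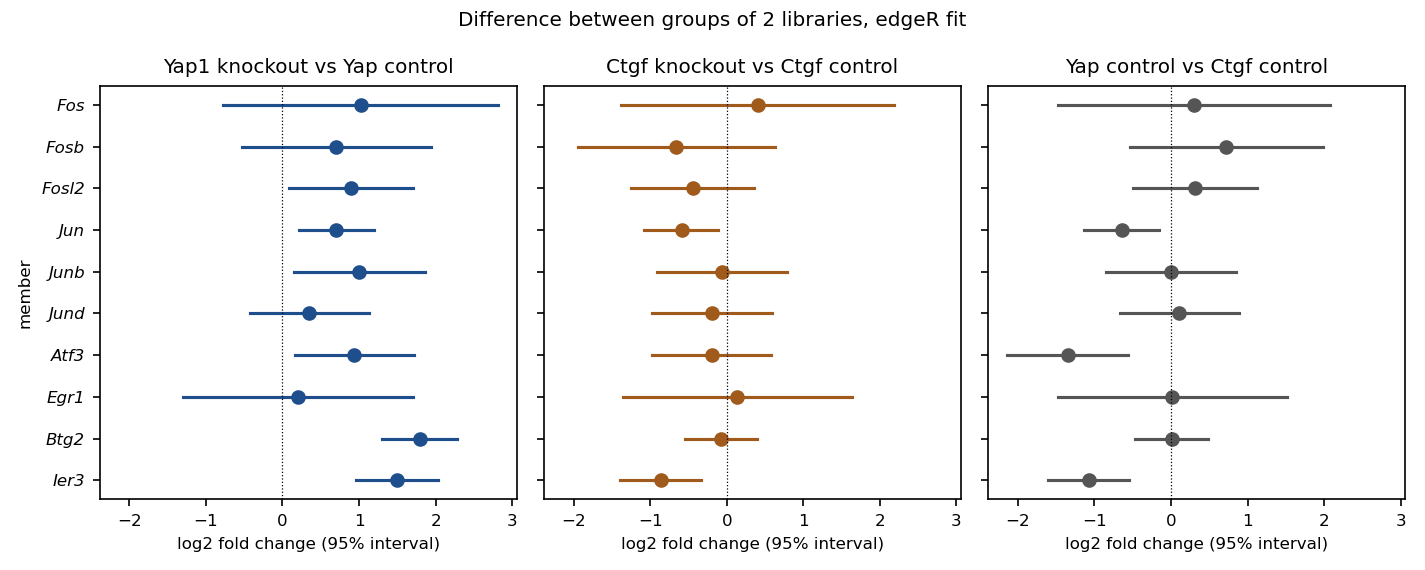
Log2 fold change (x axis) of each member (y axis) in the edgeR fit for 3 comparisons, the Yap1 knockouts and the Ctgf knockouts each against their own controls, and the Yap controls against the Ctgf controls; points are estimates and lines their 95% intervals, without adjustment over genes. In the first panel all 10 points lie above 0 and Btg2 is furthest out at 1.79, in the second Ier3 is lowest at -0.86, and in the third Atf3 is lowest at -1.35.

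The comparison of Ctgf knockout with Ctgf control asks the same for Ctgf, a secreted matricellular protein and a well-known target gene of Yap1. In the Yap line the Yap1 knockouts had 406 and 324 CPM of Ctgf, against 96.8 and 50.1 for their controls (log2 fold change 2.31, adjusted p 0.250 in edgeR), so in these livers it was not lower where Yap1 was. The log2 fold changes were below 0 for 8 of the 10 members, against 48.8% of tested genes, with a median of -0.19. None of the members, and 0% of all tested genes, passed an adjusted p of 0.05 in edgeR, while DESeq2 called 4 genes and 0 members. At an unadjusted p under 0.05 the lower members were 2 of 10, Ier3 and Jun, against 1.32% of tested genes. The knockouts were below both controls for 4 of 10, Fosl2, Jun, Jund and Ier3, against 16.8%. Ier3 was at -0.86 (SE 0.227, interval -1.39 to -0.34) and Jun at -0.59 (SE 0.211, interval -1.08 to -0.11), each with an adjusted p of 1.00. Neutrophil markers summed to 180 and 209 CPM in the Ctgf controls and 74.1 and 145 in the Ctgf knockouts, lower in both knockouts for 7 of 10 markers, and macrophage markers to 819 and 1128 against 424 and 752, lower for 8 of 10. Their part in the lower values of the members was not tested. The estimates of Fosb (-0.66), Fosl2 (-0.44), Jund (-0.19), Atf3 (-0.19), Btg2 (-0.08) and Junb (-0.06) had intervals that contained 0. So did those of Fos (0.41) and Egr1 (0.13), which lay above 0.

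The library labelled Ctgf knockout 2, whose Ctgf was not below that of its controls, decided the direction of some members. Without it the estimate was -1.57 for Fos, -1.61 for Egr1 and -0.79 for Junb, and the members' median was -0.77. Without the library labelled Ctgf knockout 1 the same genes were at 1.22, 0.91 and 0.44. Ier3 was at -0.97 and -0.75 in these fits, Fosl2 at -0.74 and -0.18.

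The difference between the Yap1 and the Ctgf effect was tested as an interaction. It passed an adjusted p of 0.05 for 0 of the 10 members and 0% of tested genes in edgeR, and with DESeq2 for 3 members, Ier3, Btg2 and Jun (adjusted p 1.87e-06, 1.48e-04 and 0.0167), among 142 of 13999 genes. Without Yap control 1, 4 members passed in edgeR, Ier3, Btg2, Jun and Fosl2, among 2092 of 14457 genes, and leaving out any other library gave 0 members and 0 genes. At an unadjusted p under 0.05 the higher members were 5 of 10, against 4.68% of tested genes. These were Ier3 with a difference of 2.36 on the log2 scale (SE 0.322, adjusted p 0.271), Btg2 with 1.87 (SE 0.294, adjusted p 0.271), Fosl2 with 1.34 (SE 0.495, adjusted p 0.531), Jun with 1.30 (SE 0.299, adjusted p 0.425) and Atf3 with 1.13 (SE 0.476, adjusted p 0.549). The interval for Egr1 reached from -2.05 to 2.19 around 0.07, and that for Fos from -1.90 to 3.13 around 0.61, so their effects were not resolved.

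The controls of the lines, which differ in floxed allele and in the GFP virus, were compared to show where the members started. In edgeR 2.38% of tested genes passed and 0 of the 10 members did. The lower members at an unadjusted p under 0.05 were 3 of 10, against 10.4% of tested genes. Atf3 had a log2 difference of -1.35 (SE 0.341, adjusted p 0.0811), Ier3 of -1.07 (SE 0.228, adjusted p 0.0557) and Jun of -0.64 (SE 0.211, adjusted p 0.139), and each was lower in both Yap controls than in both Ctgf controls, as for 27% of tested genes. With DESeq2 2 members passed, Atf3 and Ier3 (adjusted p 0.00411 and 0.00210), among 1527 of 13999 genes. Without Yap control 1 the lone Yap control was the library with pancreas transcripts. In that edgeR fit Ier3 was at -1.03 and Jund at 0.59, so Jund was higher in the Yap control and not lower. Without Yap control 2 Jund was at -0.55 and Ier3 at -1.10. With 1 library left out Atf3 ranged from -1.53 to -1.13. In the fit of all 8 libraries Btg2, at 0.01, and Junb, at -7.8e-04, had estimates near 0. Stellate cell markers (8 genes) summed to 1114 and 893 CPM in the Yap controls and 425 and 422 in the Ctgf controls, with 6 of the 8 higher in both Yap controls, Acta2 and Col1a1 among them, and Yap control 2 held the pancreas transcripts. Their part in the difference of the members was not tested. Line, virus and allele cannot be told apart in this comparison. The Yap controls enter both this comparison and that of the Yap1 knockout, so a low pair of Yap controls adds to both.

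The genes around the members were described by 5 lists. In the Yap1 comparison 6.64% of all tested genes were higher at an unadjusted p under 0.05 in edgeR, and 49.6% were above 0. Both knockouts were above both controls for 23.6%, and 0.0286% passed the adjustment in either direction. Among 13 other AP-1 and related bZIP factors, 0 passed in the Yap1 comparison and 2 were higher at an unadjusted p under 0.05, with a list median of 0.33. Maff, a small Maf factor, was at 30.3 and 25.8 CPM in the Yap controls and 56.7 and 41.4 in the Yap1 knockouts (log2 fold change 0.81, adjusted p 0.199). Both knockouts were above both controls for this gene. Among 40 other immediate early genes, 0 passed and 13 were higher at an unadjusted p under 0.05, with 30 of 40 above 0 and a median of 0.57. Dusp1, the phosphatase that shuts off stress-activated MAP kinases, was at 138 and 140 CPM in the Yap controls and 271 and 311 in the Yap1 knockouts (1.07, adjusted p 0.141). Btg1, the antiproliferative relative of Btg2, was at 75.8 and 91.2 against 148 and 171 (0.93, adjusted p 0.153).

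Of 25 MAP kinases and SRF/TCF factors, 24 were tested and 0 passed, with a median of 0.25. At an unadjusted p under 0.05, 4 were higher, against 6.64% of tested genes. Mapk8, which encodes the Jun kinase JNK1, was at 25.0 and 23.2 CPM in the Yap controls and 37.9 and 41.8 in the Yap1 knockouts (0.72, adjusted p 0.203). Map3k1, an upstream activator of JNK, was at 40.5 and 18.2 against 71.7 and 50.9 (1.06, adjusted p 0.291). Of 13 feedback inhibitors of MAP kinases, 0 passed and the median was 0.78. At an unadjusted p under 0.05, 5 were higher, against the same 6.64%. Dusp4, a nuclear MAP kinase phosphatase, was at 51.1 and 41.6 CPM in the Yap controls and 99.6 and 98.1 in the Yap1 knockouts (1.09, adjusted p 0.0959). Dusp16, a phosphatase of JNK and p38, was at 102 and 58.6 against 181 and 189 (1.21, adjusted p 0.186). The levels of both phosphatases did not overlap between the groups.

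Of 23 genes known as AP-1 targets, 0 passed, 8 were higher and 1 lower at an unadjusted p under 0.05, and the median was 0.36. Hmox1, heme oxygenase 1, was at 135 and 113 CPM in the Yap controls and 501 and 450 in the Yap1 knockouts (1.94, adjusted p 0.0805). Ccnd1, cyclin D1, which Jun is known to activate, was at 78.6 and 105 against 22.4 and 26.1 (-1.92, adjusted p 0.0557). These 2 genes, named as the 2 of smallest p in the list, differed in opposite directions, and Ccnd1 was the 1 lower gene. The part of Jun in either difference was not tested. In the same comparison 6.64% of all tested genes were higher and 7.14% lower at an unadjusted p under 0.05.

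In the Ctgf comparison 0 genes of any of the 5 lists passed, and the medians were -0.15 for other bZIP factors, -0.28 for other immediate early genes, 0.01 for MAP kinases, -0.14 for feedback inhibitors and -0.42 for AP-1 targets, against 0.01 for all tested genes. At an unadjusted p under 0.05 the lower genes numbered 1, 5, 0, 2 and 5 in that order, against 1.32% of tested genes, and no list had a higher one, against 0.657%. Cyr61, a matricellular relative of Ctgf and an immediate early gene, had 80.7 and 91.1 CPM in the controls against 39.9 and 42.4 in the knockouts (-1.06, adjusted p 1.00). Csrnp1, an early response factor, was at 70.8 and 87.6 against 48.0 and 32.9 (-0.97, adjusted p 1.00). Maff was at 68.5 and 73.1 against 48.8 and 46.3 (-0.57, adjusted p 1.00). Each of these 3 was lower in both knockouts, also in the library labelled Ctgf knockout 2. Jdp2, a repressor that dimerises with Jun, was at 6.34 and 6.88 against 3.44 and 6.49 (-0.41, adjusted p 1.00). Its groups overlapped, whereas those of the MAP kinase phosphatases Dusp8 and Dusp10 did not. Dusp8 was at 26.1 and 33.5 against 20.0 and 12.0 (-0.90), and Dusp10 was at 57.4 and 67.1 against 38.7 and 33.4 (-0.79), each with an adjusted p of 1.00. Ccnd1 was at 128 and 190 CPM against 81.3 and 71.6 (-1.06, adjusted p 1.00), below its controls in this line as well. Map2k6, at 0.797 and 1.36 against 1.63 and 2.10, and Map3k5, at 81.4 and 77.1 against 91.4 and 89.9, were above theirs. Mmp10, a matrix metalloproteinase, was at 0.383 and 1.79 against 0.177 and 0.0318 CPM, the last of these under the limit of detection.

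The genes whose levels over the 8 libraries were closest to those of each member were found by the root mean square (RMS) difference of mean-centred log2 CPM, among 10301 candidate genes at 5 CPM or more. Jun varied by 1.82-fold in all and was left out of this search. Btg2 was closest to Tgm2, transglutaminase 2, with an RMS difference of 0.18. In the Yap1 knockouts Tgm2 was at 1980 and 2114 CPM, against between 429 and 580 in the other 6 libraries, the same division as for Btg2. Its next closest gene was Selenbp1 (0.23). Ier3 was closest to Egln3, a prolyl hydroxylase of the hypoxia response (0.23), and Ppargc1a, a coactivator of gluconeogenic and mitochondrial genes (0.25). Atf3 was closest to Cln8 (0.12) and Myc (0.17), itself an immediate early gene, at 48.9 and 81.3 CPM in the Yap controls, 96.3 and 113 in the Yap1 knockouts, 146 and 138 in the Ctgf controls and 155 and 93.3 in the Ctgf knockouts. For Myc as for Atf3, the Yap controls were the 2 lowest libraries.

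Fosl2 was closest to Fyb (0.12) and Pram1 (0.15), both adaptor proteins of leukocytes, and Fos to Oas3, an interferon-induced gene, and Cytip, a lymphocyte and dendritic cell protein (0.34 each). Fosb was closest to Dock10 (0.18) and Igf1r (0.19). Egr1 was closest to H2-Ab1, a class II antigen of antigen-presenting cells (0.29), and Dusp6, the ERK phosphatase (0.33), and Dusp6 stood at 38.9 CPM in the library labelled Ctgf knockout 1 and 141 in knockout 2. Junb was closest to Cp, ceruloplasmin, an acute phase protein of hepatocytes (0.19), and Apobec1 (0.22), and Jund to Gyg (0.10) and Por, the reductase of cytochrome P450 enzymes (0.13). These genes are the closest of many and share the 8 libraries, so a small difference is set in part by the search, and no p is given. Among the members themselves the closest pairs were Fosb and Fosl2 (0.32), Fosl2 and Junb (0.36) and Jun and Ier3 (0.36), and the furthest was Fos and Atf3 (1.32).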

How the data were processed

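The deposited values are raw read counts per gene symbol in 8 mouse liver libraries. The submitters' processing notes name STAR 2.6.0a, HTSeq 0.6.1, bcl2fastq 2.20.0.422, mm10 and GRCm38. Annotation, strand setting and the kit of each library (the labels' protocols name TruSeq and KAPA) were not given in the sources used here, so kit and group cannot be told apart.

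From the counts, 13999 genes passed edgeR's filter on low counts, and edgeR 4.0.16 (R 4.3.3) was fitted once to the 4 groups with TMM scaling and quasi-likelihood F tests (4 residual degrees of freedom), with Benjamini-Hochberg adjustment over all tested genes and a threshold of 0.05. DESeq2 1.42.0, other scalings, no filter, a replicate block and left-out libraries were alternatives. Scripts were tested on simulated data. Same-numbered control and knockout libraries had deviations correlated at 0.07 in each line. Gene positions are from GENCODE M21.

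The members and lists were chosen with earlier results of these data known. Named were all members, the 2 genes of smallest p in each list and comparison (1 of them is not reported here), and the 2 genes closest in level to each member that varied by 2-fold or more.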

Additional observations from a re-analysis of the deposited data

Results flagged for a closer look

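Fosl2, Jun and Ier3 were higher in both Yap1 knockouts than in both Yap controls. They were also lower in both Ctgf knockouts than in both Ctgf controls. Of tested genes, 23.6% met the first condition and 16.8% the second, and the share meeting both was not computed. Members were picked for this section by such opposite directions without overlap, so the opposition restates the selection and is not a separate result. Jun and Ier3 were also lower in both Yap controls than in both Ctgf controls (log2 differences of -0.64 and -1.07). For Fosl2, at 0.31, the controls overlapped. Low Yap controls add to the Yap1 effect. The difference between the effects was 1.34 on the log2 scale for Fosl2, 1.30 for Jun and 2.36 for Ier3. It was tested as an interaction in edgeR and did not pass the adjustment, with adjusted p of 0.531, 0.425 and 0.271, and leaving out 1 library gave calls only without Yap control 1, where it was 0.0326, 0.0334 and 0.0244 and the lone Yap control was the library with pancreas transcripts. Without Yap control 2 the difference was 0.94 for Fosl2, 1.26 for Jun and 2.38 for Ier3, and none passed. For Ier3 and Jun the direction was that of both replicates with little spread, with SDs within groups of 0.22 and 0.15, and for Fosl2 the SD was 0.43. The Ctgf side rests in part on the library labelled Ctgf knockout 2, whose Ctgf was at 49.2 CPM.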

How the results depend on the processing

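With 2 libraries per group, calls at an adjusted p of 0.05 depended on the setting more than the estimates did. In the Yap1 comparison all 10 members stayed above 0 under the 7 alternatives other than leaving out 1 library, and 9 or 10 did when 1 library was left out. Members that passed numbered 0 in edgeR, 2 with DESeq2, 1 without the filter on low counts (Btg2) and 5 without Yap control 2 and Ctgf knockout 2 (Junb, Jund, Atf3, Btg2 and Ier3). All genes that passed numbered 4, against 509 with DESeq2 (270 higher and 239 lower), 37 without the filter, 0 in a fit of the 4 libraries compared and 938 without that pair. With 1 library left out, members passing ranged from 0 to 4 and genes from 0 to 3728. A lone library was then assumed to vary like the other groups. Jund ranged from -0.12 to 1.01 and Egr1 from -0.02 to 0.40. The adjusted p of Btg2 was 0.298 in the fit of the libraries compared, 0.354 and 0.367 without Yap1 knockout 1 and 2, and 0.00860 without Yap control 1.

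In the Ctgf comparison DESeq2 called 4 genes, and leaving out 1 library gave 0 genes and 0 members throughout. Without Yap control 2 and Ctgf knockout 2, Fos was at -1.57, Atf3 at 0.23 and Egr1 at -1.61. With 1 library left out, Fos ranged from -1.57 to 1.22, Junb from -0.79 to 0.44, Atf3 from -0.78 to 0.23, Egr1 from -1.61 to 0.91 and Btg2 from -0.30 to 0.13.

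For the difference between effects, members passing were 3 with DESeq2 and 2 without that pair, and genes passing were 142 with DESeq2, 2 without the filter and 143 without the pair. With 1 library left out, members ranged from 0 to 4, genes from 0 to 2092, Fos from -0.22 to 2.60 and Egr1 from -0.73 to 1.81.

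For the controls of the lines, genes passing were 333, against 182 with scaling by total count, 1527 with DESeq2, 0 in a fit of the libraries compared and 4056 without the pair. Members passing were 2 with DESeq2 and 6 without the pair. Junb was at 0.01 with RLE size factors, DESeq2 or the libraries compared, at 0.02 with total count and at 0.03 without the pair, Btg2 at -0.01 without the filter, and Jund at -0.55 and Egr1 at -0.04 without the pair. With 1 library left out, members ranged from 0 to 2, genes from 0 to 3699, Fos from -0.57 to 0.84, Fosb from -0.27 to 1.30, Fosl2 from -0.23 to 0.71, Junb from -0.06 to 0.10, Jund from -0.55 to 0.59, Egr1 from -0.23 to 0.38 and Btg2 from -3.7e-03 to 0.06. The cause of these differences was not tested.

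With a replicate block 19 genes and 0 members passed in the Yap1 comparison, Btg2 at an adjusted p of 0.0502, and in the Ctgf comparison Fos was at -0.14 and Egr1 at -0.32. Whether the numbers pair the libraries is not settled by the labels. The title of Yap control 2 calls it the control of knockout 12, the library number of Yap1 knockout 2, but that of Yap control 1 names 9, its own library number, and no shared litter or day is given. Scaling by total count moved the median of all genes by -0.12 in the Yap1 comparison, where the members' median was 0.79.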
